A study of Arabidopsis thaliana with 9 samples.

Results

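A set of 228 Arabidopsis genes listed under a locus code in the array's annotation had a high level in intact suspension cells, a lower one in mannitol medium and a lower one again in protoplasts. Each was read by 1 probe set, a group of short probes for the same transcript on an Affymetrix ATH1 array. The members were chosen by their measured values, out of 11933 probe sets that the array's annotation pairs with a single gene carrying a locus code (AT1G to AT5G) as its symbol. Of the 22746 probe sets other than controls, these 11933 were the ones that could enter. A probe set was kept where the group mean of log2(intensity + 16) fell by at least 0.8 from intact to osmotic cells and by at least 0.8 again from osmotic cells to protoplasts, and where neighbouring groups did not overlap in any array. The fall itself, its order and the lack of overlap are therefore conditions of membership and not findings, and none of them was tested.

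The arrays measured total RNA of T87, a wild-type Arabidopsis thaliana suspension line of undifferentiated cells grown in light, with 3 biological replicates for each of 3 groups. The intact group was harvested from 4-day-old cultures without treatment. For the osmotic group, cultures of that age were kept for 3 h in medium that held mannitol at 0.4 M. For protoplasts, the walls of such cells were digested for 1.5 h in a solution of 0.35 M mannitol with pectolyase Y-23 at 0.5% and the cellulase Onozuka RS at 1%, and after 3 washes the cells were held for 3 h in the same mannitol medium as the osmotic group. The labels name no mock change of medium for intact cells and no undigested cells taken through the washes. The first step thus holds mannitol together with the change of medium. The second step holds the enzymes together with washing and digestion time, which also lengthens the time in mannitol. These influences cannot be told apart. The arrays measure RNA pooled over all cells of a culture, so that fewer cells with a transcript and less transcript per cell cannot be told apart either.

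Mannitol is an osmolyte that draws water out of plant cells and lowers the turgor that drives their growth. Cellulase and pectolyase cut the cellulose and pectin of the primary wall, and the protoplasts left behind need an outside osmolyte to keep from bursting and begin to build a new wall when cultured. A dividing suspension culture transcribes genes of the cell cycle, the cytoskeleton and wall growth among many others. A locus code gives only the chromosome and the order of the gene along it, and the gene table used here added a name in words for 1 member, AT1G33440, listed as NPF4.4 of the NRT1/PTR family of membrane transporters. No role is given below to the other members for this reason.

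Median array intensities lay between 115 and 162, lowest in the 3 protoplast arrays. Replicate 3 of each group deviated from its group mean in the same direction as replicate 3 of the other groups, with Pearson r of 0.14 to 0.32 across the single-gene probe sets. Against other replicate numbers its r was below 0. Deviations from a group mean sum to 0 within the group, so those values add no separate evidence. Among markers of differentiated plant cells, 5 of 19 were matched to a single-gene probe set by the annotation. They were the root hair genes EXPA7 and EXPA18 and the stomatal lineage genes SPCH, MUTE and FMA. Their mean intensities over all arrays ran from 5.05 to 28.3, and their summed intensity was 44.9 to 99.0 in intact, 31.5 to 89.1 in osmotic and 55.9 to 86.8 in protoplast arrays. None was called in any comparison, with limma adjusted p between 0.400 and 0.985.

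The largest fall was that of AT1G28400. Its intensities were 4033, 4710 and 4785 in intact cells, 1629, 1310 and 953 in osmotic cells and 54.0, 53.7 and 37.4 in protoplasts. The protoplast arrays sat far below all others, and the ratio of the intact to the protoplast mean was 93.2, the highest among the members. On the log2(intensity + 16) scale it changed by -1.81 in the first step and by -4.33 in the second, which was also the largest second step in the set.

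AT2G19970 was nearly as bright in intact cells, with 3638, 4396 and 3862. It read 2194, 1957 and 2357 in osmotic cells and 79.4, 155 and 121 in protoplasts. The osmotic arrays thus stayed much nearer to the intact ones than to the protoplasts, and the first step of -0.86 made up 17.6% of the whole log2 fall of -4.92, the smallest such share in the set on this scale. If 1 was added in place of 16 it was 17.0%, next to 16.9% for AT1G80170, whose protoplast arrays are near the bottom of the scale. AT3G22550 had 5310, 5534 and 4466 in intact cells, 2326, 2386 and 1948 in osmotic cells and 143, 132 and 247 in protoplasts. Its steps were -1.19 and -3.60. AT2G43660, at 4645, 3413 and 4831 in intact, 2226, 1664 and 2902 in osmotic and 168, 220 and 265 in protoplast arrays, also changed mostly in the second step, by -3.27 against -0.94. In this gene the lowest intact and the highest osmotic array were close, while protoplasts stood apart.

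AT5G23400 had the larger step between intact and osmotic cells on this scale. It read 737, 804 and 802 in intact cells, 68.2, 85.6 and 137 in osmotic cells and 6.97, 5.52 and 30.8 in protoplasts, and the steps were -2.87 and -1.94. Since 2 of the 3 protoplast arrays lie at the bottom of the scale, the second step depends on the pseudocount: with 1 in place of 16 the steps were -3.06 and -2.99. AT3G61820 was bright in intact cells, with 4521, 4844 and 5369, and had 609, 568 and 664 in osmotic cells. Its protoplast values of 211, 248 and 246 were much nearer to the osmotic ones, and the first step of -2.97 was the largest of all members and held 69.0% of the whole fall.

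Steps of nearly equal size on this scale were seen in AT5G24010 and AT1G01300. AT5G24010 went from 979, 1170 and 804 through 184, 194 and 165 to 11.3, 25.5 and 38.1, with log2 steps of -2.33 and -2.32. AT1G01300 went from 3533, 4035 and 3180 through 634, 802 and 759 to 124.8, 165 and 123.0, with log2 steps of -2.27 and -2.29. These and AT1G03820, with -2.09 and -2.70, were the 3 members in which both steps reached -2. AT1G03820 was also uneven between replicates: intact arrays read 1035, 969 and 2732, osmotic arrays 254, 288 and 434, and protoplast arrays 22.2, 54.0 and 34.8. Intact replicate 3 was the highest by far.

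The other 3 of the 12 largest falls were AT5G07900, AT2G16270 and AT3G13760. AT5G07900 had nearly identical intact arrays, 495, 491 and 490, then 222, 197 and 192 in osmotic cells and 14.1, 11.1 and 7.34 in protoplasts. AT2G16270 read 4140, 3868 and 3639 in intact, 1106, 1345 and 2136 in osmotic and 151, 177 and 272 in protoplast arrays, and here the osmotic arrays were the most spread. AT3G13760 became dim: it read 277, 277 and 575 in intact, 56.6, 52.0 and 184 in osmotic and 3.47, 6.80 and 2.77 in protoplast arrays, the last of which lie where a signal cannot be told from background without detection calls.

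**Figure D1:**
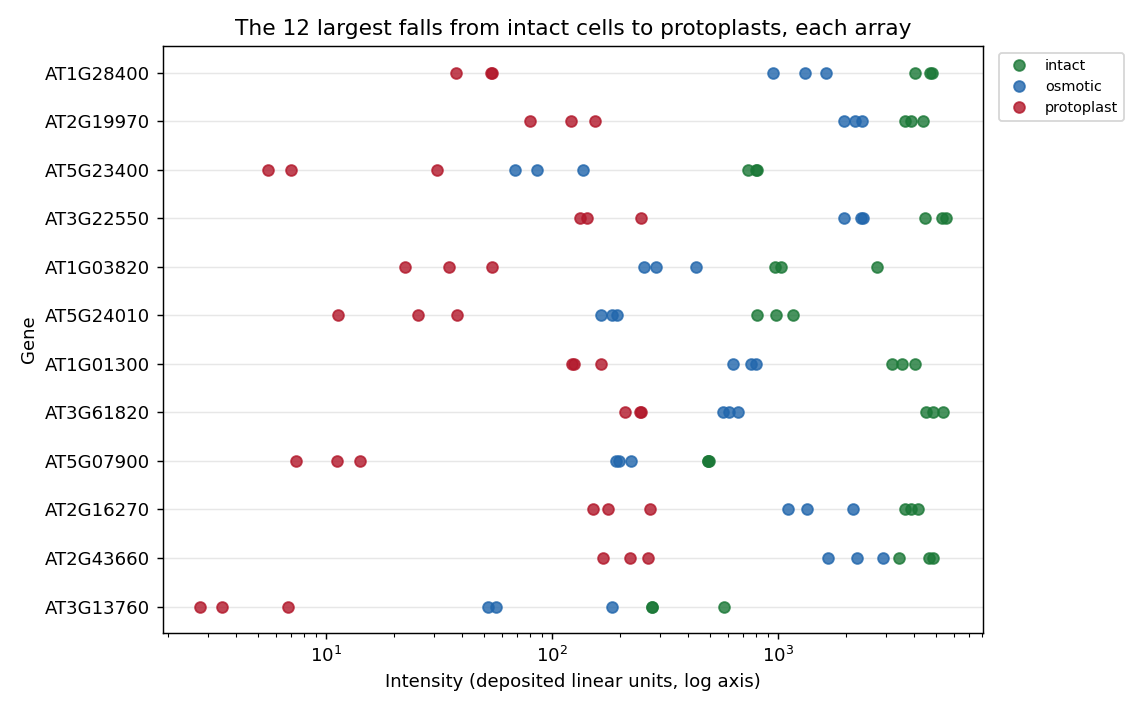
Intensity (deposited linear units, log axis) of the 12 members with the largest falls from intact cells to protoplasts, 1 point per array and 3 arrays per group. AT1G28400 runs from 4785 down to 37.4, AT2G19970 keeps its osmotic arrays near the intact ones, and AT3G61820 keeps them near the protoplasts.

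Over all 228 members the first step had a median of -1.06 on the log2 scale and ranged from -2.97 to -0.80. The second had a median of -1.43 and ranged from -4.33 to -0.81. The whole change from intact cells to protoplasts had a median of -2.59 and a range of -6.14 to -1.73, beside a median of -0.10 over all 11933 locus-code probe sets. In linear intensity, the intact mean exceeded the protoplast mean by a median factor of 7.32, with factors from 3.54 to 93.2. Both steps reached -1 in 111 members, and the whole change reached -3 in 68 and -4 in 17.

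The second step was the larger one in 172 members and the first in 56 as deposited. After each array was centred on its median these counts were 125 and 103, and with a pseudocount of 64 they were 134 and 94. Centring on the spiked hybridisation controls moved them the other way, to 196 and 32, and a pseudocount of 1 to 187 and 41. The balance of the steps thus depends on the scale. The first step held a median of 43.1% of the fall as deposited, 48.6% after centring on the median and 39.9% after centring on the controls. As deposited, the middle of the distribution, from its lower to its upper quartile, ran from 36.6% to 49.8%. Besides AT2G19970 and AT2G43660, the members with the smallest share in the first step were AT1G80170 at 23.8% and AT5G53880 at 24.0%. AT1G80170 fell from 189, 171 and 397 through 111, 96.3 and 166 to 4.48, 3.23 and 4.02, and its lowest intact array exceeded its highest osmotic array by 0.04 on the log2 scale. AT5G53880 went from 1377, 1568 and 1787 through 628, 818 and 1175 to 88.1, 59.9 and 233.

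At the other end, AT1G63150 had 68.7% of its fall in the first step, AT2G26680 67.3% and AT4G36180 67.0%. AT4G36180 read 990, 1144 and 1356 in intact cells, then 271, 224 and 260, then 87.2, 128 and 127. AT1G63150 ended at 1.96, 3.94 and 4.65 in protoplasts, so the pseudocount of 16 holds down its second step, and with a pseudocount of 1 its share was 54.8%. The first step reached -2 in 9 members, these being AT3G61820, AT5G23400, AT5G45700 with -2.62, AT1G75920 with -2.39, AT5G24010, AT1G01300, AT4G36180 with -2.13, AT1G03820 and AT1G63150 with -2.01. AT5G45700, at 783, 652 and 1069 in intact and 101, 122 and 137 in osmotic cells, had uneven protoplast arrays of 10.8, 31.2 and 93.4. AT1G75920 was more even, with 652, 490 and 483, then 88.1, 108 and 75.4, then 23.4, 32.2 and 29.0.

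**Figure D2:**
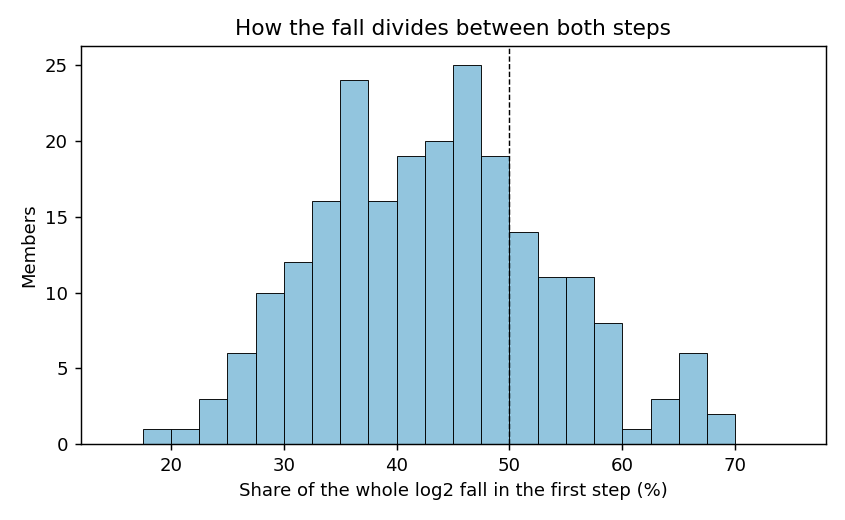
Number of members by the share of the whole log2 fall that lies in the first step, in percent; the dashed line marks equal steps. Of 228 members, 172 lie left of the line, and the shares run from 17.6% to 69.0%.

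The first step was passed by fewer probe sets than the second. From intact to osmotic cells, 666 of the 11933 locus-code probe sets fell by at least 0.8, and 595 of them had no overlap with the intact arrays, which is 4.99%. In the second step 2491 probe sets, or 20.9%, fell by that much without overlap. Of the 595 that were lower in osmotic cells, 228 fell again and became members, 14 more fell by at least 0.8 with overlapping arrays, 293 changed by less than 0.8 in either direction, and 60 rose by at least 0.8. Members were thus 38.3% of the probe sets that were lower in osmotic than in intact cells by this rule. Both steps use the same osmotic arrays, so a low osmotic reading would enlarge the first step and shrink the second. A mirror set that rose by at least 0.8 in both steps without overlap held 264 probe sets.

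**Figure D3:**
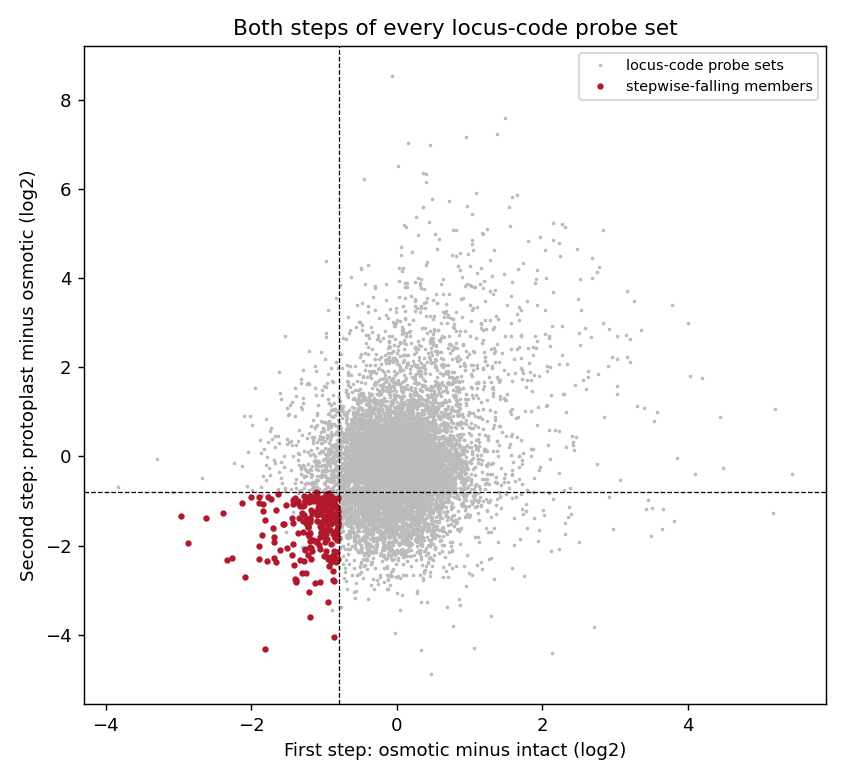
Log2 difference of osmotic minus intact cells (horizontal) against protoplasts minus osmotic cells (vertical) for 11933 locus-code probe sets in grey and the 228 members in red; dashed lines mark -0.8 on each axis. Members fill the lower left corner down to -2.97 on the horizontal and -4.33 on the vertical axis, and grey points there have overlapping arrays.

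In the linear model over all 13513 single-gene probe sets (limma, adjusted p under 0.05), 147 of the 228 members were called lower in osmotic than in intact cells, beside 3.68% of all probe sets. 225 members were called lower in protoplasts than in osmotic cells, beside 25.6% of all probe sets, and 228 lower in protoplasts than in intact cells, beside 29.1%. Since these contrasts chose the members, nothing is read from the counts. Of all calls between protoplasts and osmotic cells, 65.9% were lower as deposited and 48.4% after each array was centred on its median. Centring on the hybridisation controls gave 75.7%. Between protoplasts and intact cells the 3 shares were 64.9%, 50.9% and 72.8%.

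Members closest to the limit of the first step were AT3G62110 at -0.802, AT5G60150 at -0.803 and AT5G52280 at -0.804. The nearest probe sets left out by it, which met the other conditions, were AT1G11820 at -0.799, AT5G48460 at -0.797 and AT4G02010 at -0.796. At the limit of the second step the members were AT2G32630 at -0.805, AT3G24490 at -0.811 and AT1G66890 at -0.830, and those just outside were AT5G66000 at -0.793, AT3G10190 at -0.773 and AT1G63100 at -0.765. AT5G60150 was also the member with the smallest whole fall, at -1.73, from 332, 301 and 445 through 169, 176 and 254 to 88.5, 71.5 and 138. The list has no natural break at its edge.

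Intact levels of the members were high for the array. Their mean intensities in intact cells had a median of 611 and ranged from 54.6 to 12644, while the median of all locus-code probe sets was 110. Of the members, 74 or 32.5% exceeded 1000, compared with 12.1% of the locus-code probe sets, and 7 or 3.07% lay under 100, compared with 48.8%. Part of this follows from the rule, because a dim probe set has no room for 2 steps of 0.8 above the pseudocount. In osmotic cells the median of member means was 263, against 109 for all locus-code probe sets. In protoplasts it was 88.0, against 87.1, so the members ended at about the level of a typical locus-code probe set.

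**Figure D4:**
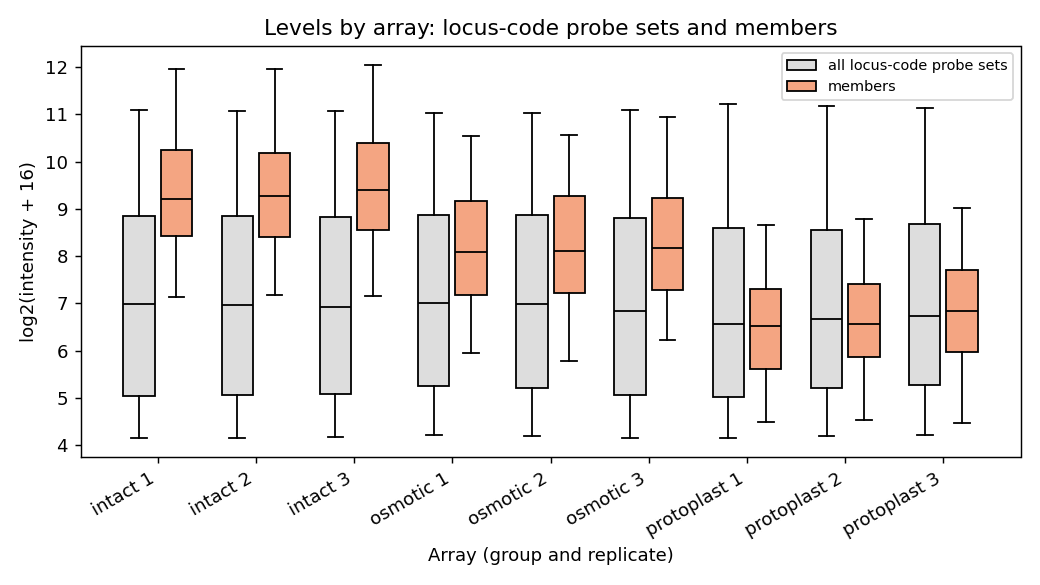
Levels as log2(intensity + 16) in each of the 9 arrays, for all 11933 locus-code probe sets (grey) and the 228 members (orange); boxes give the quartiles, the line the median and whiskers the 5th and 95th percentiles. Member medians are 9.20, 9.28 and 9.40 in intact, 8.09, 8.12 and 8.16 in osmotic and 6.53, 6.57 and 6.85 in protoplast arrays.

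The brightest member was AT2G01820, which read 12514, 12309 and 13108 in intact cells, 7789, 7528 and 6284 in osmotic cells and 3010, 3683 and 3101 in protoplasts. Both of its steps were modest, -0.82 and -1.14, and it stayed bright throughout. AT3G51670 had 7009, 7592 and 9268, then 2925, 3152 and 4718, then 604, 645 and 1319, with replicate 3 highest in every group. AT4G02800 had 8155, 6979 and 6789, then 2669, 4035 and 3920, then 710, 791 and 943. These genes kept a clear signal in protoplasts, and so did AT5G26670, from 6129, 5368 and 4950 through 1432, 1898 and 1687 to 400.2, 537 and 719.

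AT2G04460 completes the brightest 6 beside AT3G22550 and is listed as a pseudogene in the gene table. It read 4653, 5368 and 6563 in intact cells, 1475, 1893 and 1813 in osmotic cells and 242, 280 and 472 in protoplasts, with log2 steps of -1.66 and -2.37. The set holds 2 more pseudogenes, AT2G23500 and AT3G29610, among 225 protein-coding members. AT2G23500 read 634, 702 and 896, then 184, 214 and 213, then 87.4, 104 and 113. Its probe set and that of AT3G29610 were the only members whose names end in _s_at or _x_at, which mark probes that can read related transcripts as well. Whether other transcripts add to these 2 signals was not tested.

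At the dim end, 19 members had a protoplast mean under 16, and in 18 all 3 protoplast arrays lay below the lower quartile of their array. AT1G51080 read 83.0, 110 and 53.3 in intact cells, 19.8, 7.13 and 37.5 in osmotic cells and 2.38, 1.30 and 2.12 in protoplasts. AT3G21100 had 82.8, 77.6 and 56.2, then 14.6, 30.7 and 33.7, then 1.37, 2.29 and 2.61. For such genes the protoplast value is at the bottom of the scale, and the size of the second step depends on the pseudocount. AT2G32630 was the dimmest member in intact cells, with 50.4, 64.7 and 48.7.

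NPF4.4 (AT1G33440), the member with a name in words, read 324, 369 and 253 in intact cells, 140, 169 and 87.6 in osmotic cells and 34.9, 32.9 and 1.29 in protoplasts. Replicate 3 was the lowest in every group, most of all in protoplasts. The log2 steps were -1.19 and -2.04.

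Replicates differed within groups, and the members moved together in this. In protoplasts, replicate 3 lay above the group mean for 165 of 228 members and replicate 1 for 54, with median deviations of 0.18 and -0.18 on the log2 scale. Over all locus-code probe sets the same deviations were 0.07 and -0.06. In intact cells replicate 3 was above its group mean for 146 members, and in osmotic cells for 139. Within arrays of the same number, the median first step of the members was -1.09, -1.05 and -1.12 for numbers 1, 2 and 3, and the median second step was -1.62, -1.49 and -1.37. Over all locus-code probe sets the second step in these sets was -0.26, -0.17 and -0.04, so that relative to it the members' second step was nearly equal in the 3 sets, at -1.36, -1.32 and -1.33. Both steps reached -0.8 within every same-numbered set for 83 members. Without replicate 3 of every group, the median steps of the members were -1.06 and -1.49, and 182 of them still met the rule.

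Members also differed in how clearly their groups separated. The gap between the lowest intact and the highest osmotic array had a median of 0.60 on the log2 scale and exceeded 0.5 in 149 members, and the gap between the lowest osmotic and the highest protoplast array had a median of 0.84 and exceeded 0.5 in 174. The widest gap was 2.74 in the first step, in AT3G61820, and 3.79 in the second, in AT1G28400. Gaps under 0.1 occurred in 6 members in the first step and in 11 in the second. The narrowest was that of AT4G28430, whose osmotic arrays of 49.4, 119 and 163 reached down to the highest protoplast array at 49.0. The pooled SD between replicates had a median of 0.31 over the members and 0.32 over all locus-code probe sets.

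The members lay on all 5 chromosomes. They made up 1.84% of the locus-code probe sets of chromosome 1, 1.47% of chromosome 2, 2.5% of chromosome 3, 1.91% of chromosome 4 and 1.78% of chromosome 5, beside 1.91% of all 11933. In the gene order of the TAIR10.1 gene table, 188 places next to a member held a gene with a locus-code probe set, and 6 of them, or 3.19%, were members. These were 3 pairs of neighbours. AT2G16250 and AT2G16270 followed similar courses: AT2G16250 went from 1102, 1147 and 1313 through 453, 488 and 523 to 39.7, 46.9 and 145, with steps of -1.25 and -2.61 beside -1.39 and -2.82 in its neighbour.

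In the other pairs the neighbours differed in level. AT4G15830 was bright, with 3704, 3641 and 4634 in intact, 1062, 1411 and 2591 in osmotic and 277, 262 and 369 in protoplast arrays, and AT4G15820 read 248, 309 and 204, then 129, 147 and 71.6, then 53.7, 70.3 and 19.8. AT1G52700 read 1136, 1156 and 595, then 235, 257 and 251, then 90.8, 101 and 140. AT1G52710 next to it was dim, at 78.8, 54.2 and 84.7, then 32.6, 33.0 and 30.9, then 16.1, 1.56 and 10.4.

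Most neighbours of members were not members themselves. With members left out, the 209 remaining neighbouring genes had a median change of -0.05 in the first step and -0.30 in the second. Over all 13513 single-gene probe sets these medians were 0.01 and -0.14. Chosen after its values were seen, AT3G22540 next to AT3G22550 shared only the second step: it read 3465, 2931 and 3547 in intact cells, 4184, 5370 and 4339 in osmotic cells and 110, 157 and 158 in protoplasts. The auxin response gene IAA30 beside AT3G62110 rose instead, from 212, 176 and 349 through 3142, 2500.3 and 1573 to 7456, 6273 and 5181.

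No member gene had a second probe set assigned to it alone. AT5G66230 was also listed, together with another gene, for a probe set that gave 12.8, 14.0 and 26.9 in intact, 41.6, 49.8 and 34.5 in osmotic and 14.8, 7.59 and 9.67 in protoplast arrays. Its own probe set gave 2221, 2214 and 2226, then 876, 1508 and 1217, then 201, 197 and 304. The shared probe set was dim in all arrays and did not follow that course.

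Probe sets with a gene name met the same measured conditions about as often, 35 of 1580 or 2.22%, compared with 228 of 11933 or 1.91% for locus codes. Some of the 35 are named here with their roles, chosen after their values were seen and with no count or test of any group of genes. The chromosome and division genes among them were the Aurora kinase gene AUR2, the centromeric histone gene HTR12, the replication licensing gene PRL, the polymerase subunit gene POLD3, the helicase gene RECQ4A and 3xHMG-box1 and 3xHMG-box2, which encode chromatin proteins. TUB7, ATMAP65-6, KINESIN-12B and ACT11 encode parts or partners of microtubules and actin filaments. At the cell surface, COB guides cellulose deposition, EXPB3 encodes an expansin, and RALFL24 and RALFL34 encode signalling peptides. The rest of the 35 were not placed in a group here, and some may belong to those above. They were ARA12, MOL1, GTR2, QKY, MYC4, UNG, ATL8, TET7, PPR336, CPI1, LOJ and VPS24.2. To these are added SKU5, ATCSLC08, NET1A, NET3C, ATLP-1, LSH9, FU and SPK1. The named genes say nothing about the roles of the locus-code members.

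PRL read 766, 890 and 795 in intact cells, 439, 421 and 464 in osmotic cells and 184, 187 and 221 in protoplasts. Its whole log2 change of -1.97 was smaller than the median of -2.59 among the members. TUB7 was brighter, with 4145, 4910 and 4486, then 2117, 2482 and 2538, then 567, 597 and 720. KINESIN-12B read 300, 336 and 340, then 159, 190 and 181, then 61.9, 66.3 and 77.1. Their groups do not overlap because the rule required it.

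Few genes of the lists written for dividing and wall-building cells were matched to a single-gene probe set by the annotation. It leaves 8730 of the 22746 probe sets other than controls unnamed, so the array may still read the others. All genes that were matched carried a gene name, so none could be a locus-code member whatever its values. AUR2, PRL and COB met the measured conditions. Of 21 genes of mitosis and cytokinesis 3 were matched, AUR1, AUR2 and AUR3. In osmotic cells 2 of them fell, with AUR3 at -0.24 ± 0.26 (SE, limma adjusted p = 0.663), and from osmotic cells to protoplasts all 3 fell, AUR3 by 1.46 (limma adjusted p = 0.00178). The median of the 3 was -0.68 in the first step and -1.01 in the second, beside 0.01 and -0.14 over all 13513 probe sets. Of 12 S phase genes only PRL was matched, and it fell in both steps (limma adjusted p = 0.0126 and 5.1e-04). Of 18 wall synthesis genes 2 were matched, COB and CSLC04. COB fell in both steps (limma adjusted p = 0.0175 and 5.6e-04). CSLC04 did not pass in the first step, with 0.35 ± 0.20 (SE, limma adjusted p = 0.341), and rose by 2.38 ± 0.20 in the second step (SE, limma adjusted p = 3.8e-05). Of 6 wall receptor genes 2 were matched, THE1 and FER. THE1 fell by 1.12 and then by 0.75 (limma adjusted p = 0.0139 and 0.0161), a second step short of the rule's limit. FER had -0.33 in the first step (limma adjusted p = 0.291) and rose by 0.96 in the second step (limma adjusted p = 0.00146). The course shared by the 228 members was therefore not that of every wall gene among these few.

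Membership depended on how the arrays were put on a common scale, and protoplast arrays had the lowest medians. Over all locus-code probe sets the median second step was -0.13 as deposited and 0.05 after each array was centred on its median. With spiked hybridisation controls as the centre it was -0.29. The members' median second step was -1.43 as deposited and -1.15 after median centring, which lies 1.30 and 1.20 below the respective median of all locus-code probe sets. With the controls as the centre it was -1.64, or 1.35 below. Of the 228 members, 162 still met the rule after median centring, 185 after their distributions were made equal (quantile normalization), and 214 with the controls as the centre. With a pseudocount of 64 in place of 16, 134 remained. Across 14 settings, made up of 3 scalings, 2 pseudocounts and the omission of each array, 86 members remained in every one, among them 10 of the 12 largest falls. The exceptions were AT2G19970, which dropped out without intact replicate 2 or osmotic replicate 2, and AT2G43660, which dropped out without osmotic replicate 2. Of the 28 members named by rank, 14 remained in every setting. AT2G01820, the brightest, and AT4G36180, AT2G26680 and AT1G80170 dropped out both after median centring and after quantile normalization.

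**Figure D5:**
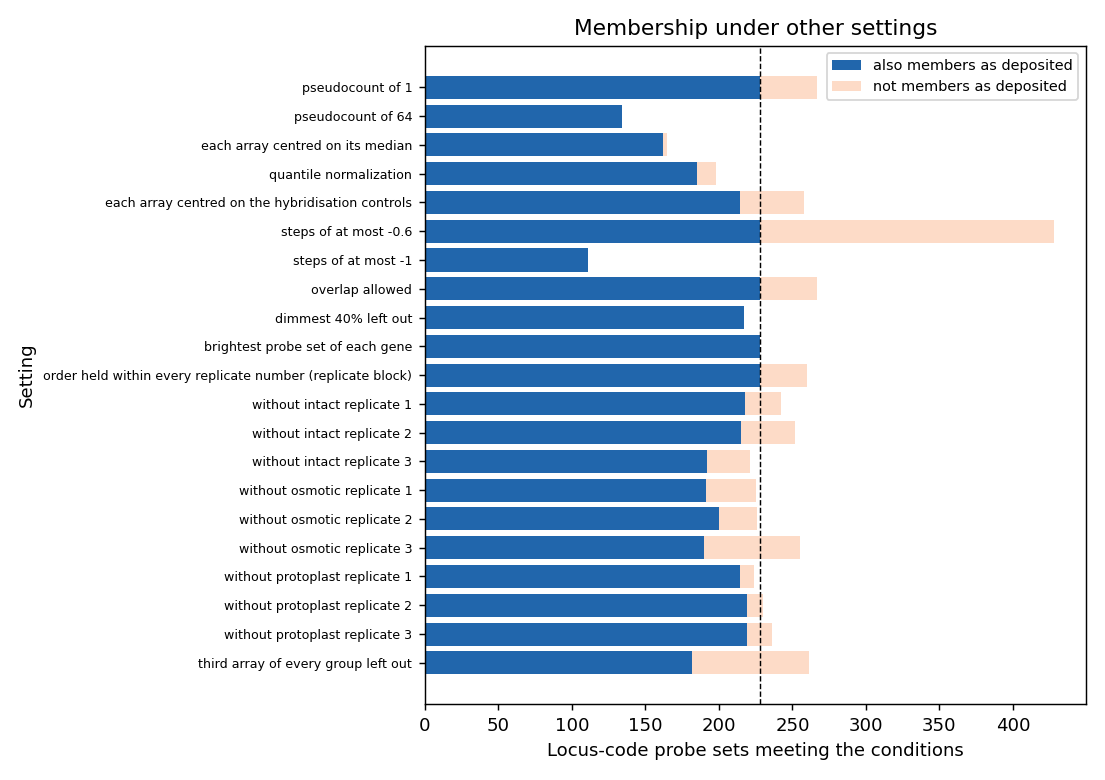
Number of locus-code probe sets that met the conditions under each other setting, split into members as deposited (blue) and others (pale); the dashed line marks 228. The blue part is shortest with steps of at most -1, at 111 members, and with a pseudocount of 64, at 134.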

How the data were processed

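ATH1 arrays were hybridised with biotinylated cRNA, per the labels, and the authors deposited a linear intensity for every probe set of each array. Trimmed by 2% at both ends, the intensities of every array average between 500.04 and 500.06. How probes were summarised is not stated in the labels, and detection calls were not analysed here. Gene names come from an older annotation of the array. All 228 members matched a locus of the TAIR10.1 gene table, used for names and gene order only. That table holds no product names or sequences, so the intended grouping by role and the search of promoters were not run, nor the naming of genes by role class or product family. Values were taken as log2(intensity + 16), which understates falls to dim levels. All 9 arrays entered 1 model (limma 3.58.1, R 4.3.3) over 13513 single-gene probe sets, with Benjamini-Hochberg adjustment within each of 3 comparisons, and the model was tested on simulated data. Levels of different probe sets are not on a common scale, so comparisons of brightness describe probe sets. Members and lists were chosen with earlier results of these data known. Named members were the 12 largest falls, the 6 brightest, the 4 largest and 4 smallest shares in the first step and the 3 nearest to each limit. AT5G45700, AT1G75920, AT1G51080, AT3G21100, AT4G28430, AT5G66230, NPF4.4, the pseudogenes and the neighbouring genes were named after their values were seen. P-values set each group difference against the spread between biological replicates, estimated over all 9 arrays. The number of replicates limits the precision. Python 3.11.15, pandas 2.3.3 and matplotlib 3.10.9 were used.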

Additional observations from a re-analysis of the deposited data

How the results depend on the processing

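The count of 228 members became 134 with a pseudocount of 64, 428 with steps of at most -0.6 and 111 with steps of at most -1. It stayed within 1.5 times of 228 under the other settings, from 165 after centring on the median to 267 with a pseudocount of 1 or with overlap allowed. Without 1 array it lay between 221 and 255, and 190 to 219 of the 228 remained. Without the third array of every group, a setting chosen after seeing the data, 261 probe sets met the rule and 182 members remained. Calls lower in osmotic than in intact cells numbered 497, and became 120 at an adjusted p under 0.01, 1193 with array weights, 215 and 820 when the pseudocount was 1 and 64, 760 without the dimmest 40% of probe sets, and 159 to 709 without 1 array. Omitting intact replicate 1 left 185, intact replicate 2 186, intact replicate 3 221, osmotic replicate 1 242 and osmotic replicate 2 159. Without 1 array, calls lower in protoplasts ranged from 2838 to 3683 against osmotic cells and from 3446 to 4025 against intact cells. The rule for pairing arrays by replicate number was not met. Same-numbered deviations correlated at 0.02 to 0.32, highest for replicate 3 between osmotic cells and protoplasts, but not every pair exceeded 0.1, and intact replicate 1 correlated better with osmotic replicate 2 than with osmotic replicate 1. With the replicate number as a block, 567, 3618 and 4047 probe sets were called lower in the 3 comparisons, and with the order held within replicate numbers in place of no overlap 260 met the rule. Of 420 whole falls of named members recomputed under the alternatives, 54 moved by more than 1 SD, and those that leave out an osmotic array could not move. Detection calls were not analysed here, so falls to intensities under 16 are uncertain in size.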

Other observations

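Among the 8730 probe sets that the annotation does not name, 193 or 2.21% met the same measured conditions as the members, and 7 of the 503 that list several genes did. In all, 463 of the 22746 probe sets other than controls fell in both steps in this way. Of the unnamed ones that were lower in osmotic than in intact cells by at least 0.8 without overlap, 42.1% fell again by at least 0.8 without overlap, compared with 38.3% of the locus-code ones.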
